A study of Mus musculus with 10 samples.

Results

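The cytosolic ribosomal protein genes are the genes of the protein subunits of the ribosome outside mitochondria. They were taken as the genes whose probe sets carry a single symbol of the Rpl or Rps form, with Rplp0, Rplp1, Rplp2 and Rpsa added and the Rps6k kinase genes left out. This gave 61 genes of 19938 with such a probe set, 23 of the small subunit and 38 of the large subunit. A gene was represented by its probe set with the highest mean signal. Of the 61 genes, 59 passed the level filter of 6.23 on the log2 scale and were tested among 15662 genes, and Rpl3l and Rpl39l did not. A further 17 symbols of the family, Rpl11 and Rpl3 among them, occur only in probe sets shared with other symbols and were not measured singly.

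The RNA came from mouse cells of acute myeloid leukaemia with the MLL-AF9 fusion oncogene, sorted for the surface receptor c-Kit by flow cytometry. The 5 lines, each an independent primary leukaemia taken from moribund mice, all carried Cre-ER, a recombinase that 4-hydroxytamoxifen (4-OHT) switches on under a promoter that the labels leave unnamed. Lines 10949, 10950 and 10986 carried a floxed (fl/y) allele of the X-linked transcription factor gene Zfx, and lines 10977 and 10980 the wild-type (wt/y) allele. Each line was cultured for 72 h with 10 nM 4-OHT or with ethanol vehicle in medium with IL-3, IL-6 and SCF, which gave 3 floxed vehicle, 3 floxed 4-OHT, 2 wild-type vehicle and 2 wild-type 4-OHT arrays. The genotype label of the floxed 4-OHT cells is cko, and that of their vehicle cells fl. No ages are stated in the labels. The lines are the replicates. In the 4-OHT tests a p-value rests on the spread between lines of the 4-OHT minus vehicle difference. In the comparisons of genotypes it rests on the spread of the signal between lines. The 10 arrays limit the precision.

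Ribosomal proteins join ribosomal RNA in the nucleolus to form the small subunit, which reads the messenger RNA, and the large subunit, which joins amino acids. Their messenger RNAs are among the most abundant in growing cells and typically begin with a run of pyrimidines (the TOP motif), through which mTOR signalling governs their translation. Loss of 1 copy of several of these genes causes Diamond-Blackfan anaemia, a failure of red cell formation, and free Rpl5 and Rpl11 bind Mdm2, which otherwise marks p53 for degradation.

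Because runs of C and T at the start of the message are the sequence feature best known in this family, windows of 60 bases around the annotated transcription start are shown for those members with the lowest and highest 4-OHT minus vehicle differences in floxed lines that had an entry in the RefSeq promoter table (GRCm38.p6). Each runs 5′ to 3′ on the gene's strand, with 40 bases before the start and 20 from it, and capitals mark runs of at least 6 bases that are all C or T. Rpl13 lies at chr8:123102310-123102369 on the plus strand, Rpl24 at chr16:55966235-55966294 on the plus strand and Rps28 at chr17:33824543-33824602 on the minus strand. Rps27l, for which the first of 2 listed starts is shown, lies at chr9:66946046-66946105 on the plus strand, Rpl36a at chrX:134585614-134585673 on the plus strand and Rps13 at chr7:116334171-116334230 on the minus strand.
Rpl13: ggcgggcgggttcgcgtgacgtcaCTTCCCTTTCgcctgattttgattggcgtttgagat
Rpl24: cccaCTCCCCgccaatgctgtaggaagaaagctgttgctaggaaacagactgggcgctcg
Rps28: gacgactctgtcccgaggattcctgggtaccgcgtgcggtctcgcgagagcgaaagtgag
Rps27l: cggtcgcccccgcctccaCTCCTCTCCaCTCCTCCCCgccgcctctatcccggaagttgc
Rpl36a: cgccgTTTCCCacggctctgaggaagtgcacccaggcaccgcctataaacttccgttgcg
Rps13: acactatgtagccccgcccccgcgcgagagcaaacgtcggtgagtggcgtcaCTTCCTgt

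The promoter table held 49 of the 61 members, with 58 starts. A run of at least 6 C or T on the gene's strand lay within 20 bases either side of a start in 30 of the 49 members (61.2%), against 41.2% of all 27025 genes in the table. On the other strand such a run was found in 9 members (18.4%), against 43.8% of all genes. The letters CTTTC, which can lie inside such a run, were found in the same window on the gene's strand in 12 members (24.5%, against 6.44% of all genes) and on the other strand in 3 (6.12%, against 5.67%). Over the whole 300 bases and on both strands, CCGGAAG was found in 19 members (38.8%, against 9.93%) and AGGCCT in 9 (18.4%, against 11.6%). Of the windows shown, that of Rpl13 holds a run of 10 bases and that of Rps28 holds none of the length searched. The marked runs of Rpl13, Rpl24, Rps27l and Rpl36a lie before the annotated start, and that of Rps13 lies after it. No marked run in these windows begins at or crosses the annotated start, so the capitals do not show a TOP motif there. These are matches of letters and carry no measurement of binding or translation.

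One array, that of line 10986 with vehicle, differed most from the other 9. It lay at 49.4 on the first principal component over all genes, against -20.4 to 23.0, and its mean correlation with the other arrays was 0.961, against 0.979 to 0.985. Fitted differences of named ribosomal protein genes that rest on this line are also given without it. The 8 leukaemic progenitor markers checked, Kit, Ptprc, Cd34, Mpo, Elane, Hoxa9, Meis1 and Itgam, all passed the level filter. So did 3 of 3 measured erythroid and 3 of 3 measured mast cell markers. Of the measured B cell markers 1 of 3 passed, and of the T and NK cell markers 1 of 3. Passing the filter does not by itself show that a gene is expressed. The log2 of the summed erythroid signal was 8.18 to 8.45 over all arrays, near the 7.88 to 8.16 of the T and NK cell sum. It was 7.55 to 7.66 for B cell and 9.36 to 11.20 for mast cell markers. The erythroid and lymphoid counts are therefore not a contrast of presence with absence. The Zfx probe set had a 4-OHT minus vehicle difference of 0.37 in floxed lines (SE 0.16, limma adjusted p = 0.407), and whether it covers the deleted part is not known here, so it checks neither the deletion nor the labels.

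The ribosomal protein genes had bright probe sets on every array. Of the 61 probe sets, 33 were among the 200 brightest (the top 1%) of the 19938 genes, 49 were in the top 5%, and 10 were among the brightest 20. The median of their mean log2 signals was 12.86, against 8.06 for all genes tested. A probe set's signal also depends on how well its probes bind, so the order of signals is not an order of transcript amounts, and whether signals at this height are compressed was not tested. The sum of the members made up 3.68% to 4.28% of the summed linear signal of all genes on an array. This share was highest on the vehicle array of line 10986, where the members' own sum was the lowest of the 10 arrays. That sum was 452390 there, against 472256 to 517174 on the other arrays, so the share also depends on the other genes.

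The median log2 signal of the 59 tested members was nearly level over the 10 arrays. In floxed lines 10949, 10950 and 10986 it was 12.98, 12.90 and 12.77 with vehicle and 12.91, 12.93 and 12.83 with 4-OHT. In wild-type lines 10977 and 10980 it was 12.81 and 12.89 with vehicle and 12.81 and 12.96 with 4-OHT. The lowest and the highest of these medians are both floxed vehicle arrays, so the 4 groups overlap.

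**Figure D1:**
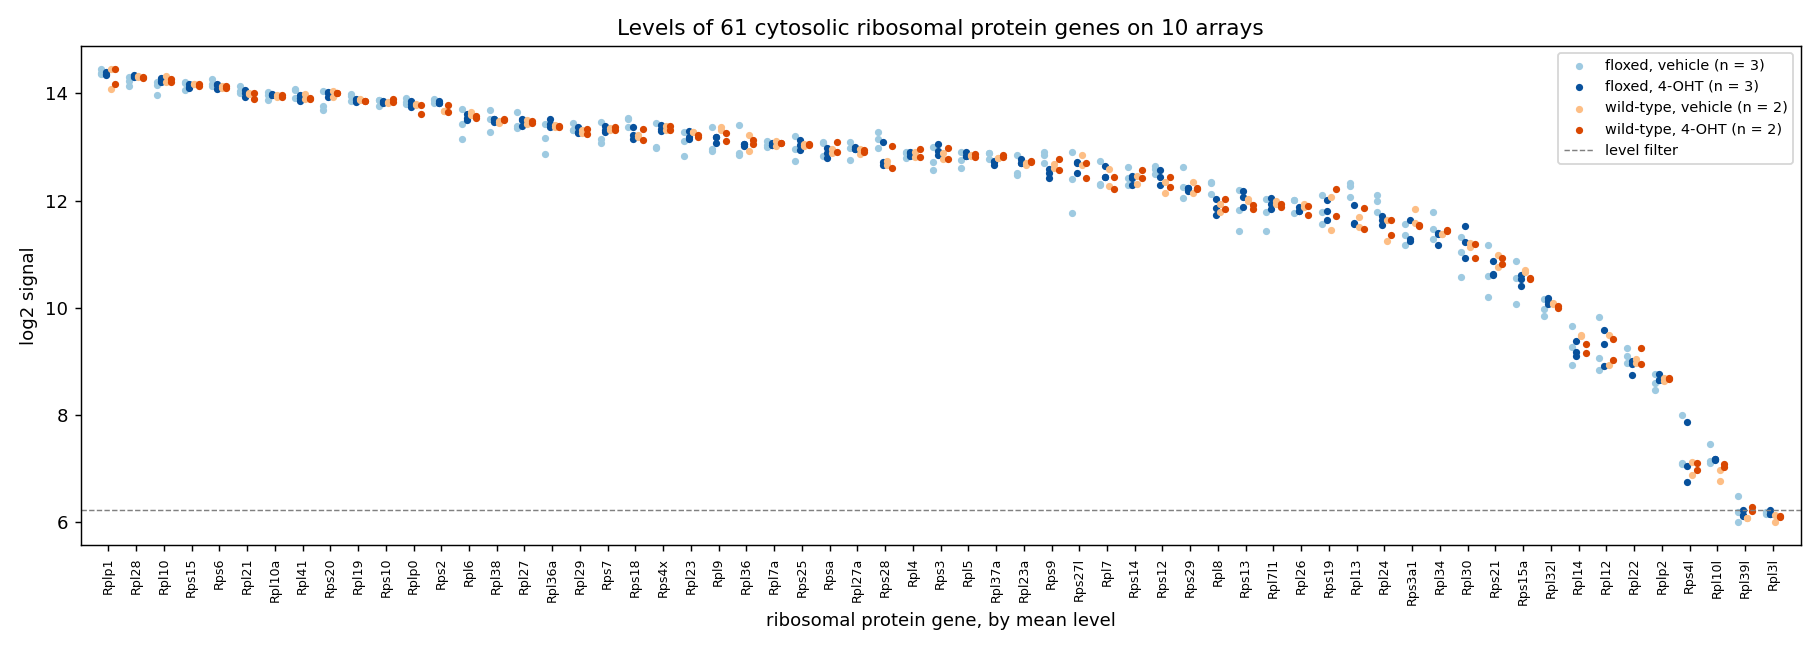
Log2 signal (vertical axis) of the 61 ribosomal protein genes (horizontal axis, ordered by mean signal) on the 10 arrays, 1 point per array, coloured by group, with the level filter of 6.23 as a dashed line. Most genes lie above 12 with the groups on top of each other, the floxed vehicle points spread widest for Rps27l, and Rpl3l and Rpl39l lie at the filter.

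The brightest 5 members were Rplp1, Rpl28, Rpl10, Rps15 and Rps6, the last being the classic target of the S6 kinases. On all 10 arrays Rps6 lay between 14.09 and 14.27, Rps15 between 14.07 and 14.21, Rpl28 between 14.14 and 14.35 and Rpl10 between 13.98 and 14.33. The dimmest 5 were Rpl3l, Rpl39l, Rpl10l, Rps4l and Rplp2. Rplp2 belongs to the acidic stalk of the large subunit, which recruits elongation factors, together with Rplp0 and Rplp1. Of the stalk genes, Rplp2 lay between 8.46 and 8.77 on the 10 arrays, Rplp0 between 13.61 and 13.91 and Rplp1 between 14.09 and 14.46.

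No ribosomal protein gene passed the limma test for a 4-OHT minus vehicle difference in floxed lines. The count was 0 of 59 at an adjusted p under 0.05, where 0.153% of all genes tested (24 genes) passed. At an unadjusted p under 0.05 there were 5 of 59 members (8.47%), a share below the 12.3% of all genes. The median fitted difference of the members was 0.01, with 31 above 0 and 28 below, against a median of -0.00 for all genes. The median size of the difference, whatever its sign, was 0.10 for the members and also 0.10 for all genes. In cells measured in bulk, fewer cells of a type and less RNA per cell cannot be told apart.

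The absence of calls comes with intervals that bound the differences. For 54 of the 59 members the 95% confidence interval lay within 1.5-fold either way, and for all 59 within 2-fold. The lowest bound of any member was -0.81, for Rpl13, and the highest 0.81, for Rps27l. The smallest adjusted p of a member was 0.125, that of Rpl13.

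**Figure D2:**
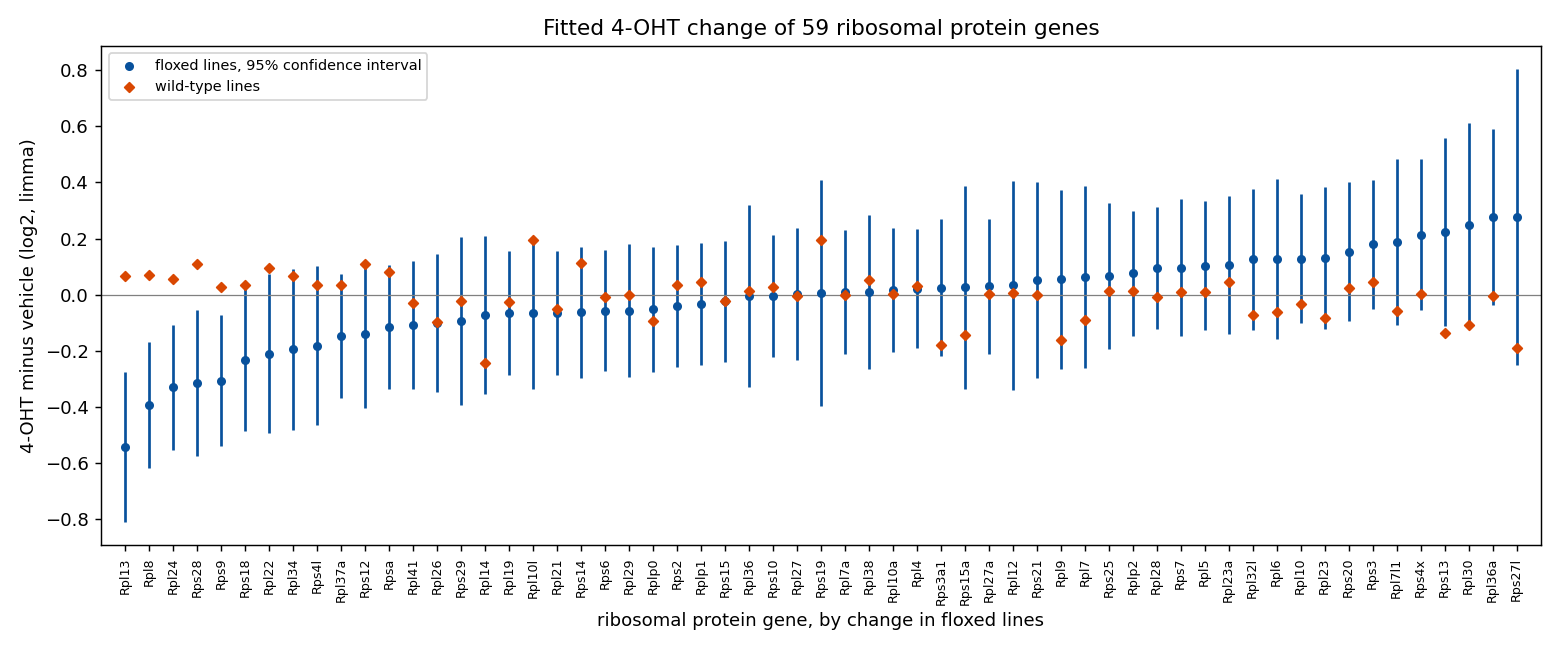
Fitted 4-OHT minus vehicle difference on the log2 scale (vertical axis) of the 59 tested ribosomal protein genes (horizontal axis, ordered by the difference in floxed lines), with blue points and 95% confidence intervals for floxed lines (n = 3) and orange diamonds for wild-type lines (n = 2). Most intervals cross 0; those of Rpl13, Rpl8, Rpl24, Rps28 and Rps9 lie below it, and none of these genes passed after adjustment.

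Rpl13, a protein of the large subunit, had the lowest difference. In floxed lines 10949, 10950 and 10986 its log2 signal was 12.07, 12.28 and 12.33 with vehicle and 11.57, 11.91 and 11.58 with 4-OHT. In wild-type lines 10977 and 10980 it was 11.51 and 11.70 with vehicle and 11.48 and 11.87 with 4-OHT. The 3 floxed vehicle arrays were the highest of the 10 and did not overlap the floxed 4-OHT arrays, which lay within or just above the range of the wild-type arrays. The fitted difference in floxed lines was -0.54 (SE 0.11, n = 3 lines, limma adjusted p = 0.125), and -0.44 (adjusted p = 0.0646) without line 10986, so it did not pass in either fit. All 9 probe sets that carry the Rpl13 symbol were lower with 4-OHT in all 3 floxed lines. Probe sets of the same symbol were read on the same arrays, so they are not independent replicates. Which transcripts each of them reads was not checked.

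Rpl8 and Rpl24, also of the large subunit, followed. Rpl8 stood at 12.12, 12.32 and 12.35 on the floxed vehicle arrays and at 11.74, 12.02 and 11.86 on the floxed 4-OHT arrays of the same lines, and between 11.79 and 12.02 on the 4 wild-type arrays. Rpl24 stood at 11.79, 12.10 and 11.98 on the floxed vehicle arrays, at 11.54, 11.70 and 11.63 on the floxed 4-OHT arrays and between 11.24 and 11.64 on the wild-type arrays. For both genes every floxed vehicle array was above every floxed 4-OHT array and above every wild-type vehicle array. The fitted differences in floxed lines were -0.39 for Rpl8 (SE 0.09, adjusted p = 0.160) and -0.33 for Rpl24 (SE 0.09, adjusted p = 0.218). Rpl8 has 1 probe set. Of the 3 of Rpl24, 2 were lower with 4-OHT in all 3 floxed lines, and in line 10986 the 3 ran from -0.35 to 0.28, so Rpl24 rests on the probe set chosen.

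In the small subunit the lowest differences were those of Rps28 and Rps9. Rps28 stood at 12.98, 13.28 and 13.14 on the floxed vehicle arrays and at 12.67, 13.09 and 12.71 on the floxed 4-OHT arrays, and the wild-type arrays lay between 12.61 and 13.02. Each floxed line was lower with 4-OHT, but the groups overlap, since line 10950 with 4-OHT was above line 10949 with vehicle. The difference was -0.31 for Rps28 (SE 0.11, adjusted p = 0.307). All 7 of its probe sets, 6 of them with distinct values, were lower in all 3 floxed lines. For Rps9 it was also -0.31 (SE 0.10, adjusted p = 0.268), but the other probe set of Rps9 stood at 0.22 in line 10986.

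At the other end stood Rps27l, Rpl36a, Rpl30 and Rps13, each with its largest difference in line 10986. Rpl36a and Rpl30 were also higher with 4-OHT in line 10949, by 0.34 and 0.21, and both were lower in line 10950. Rps27l, a paralogue of Rps27 known as a p53 target, was at 12.91, 12.41 and 11.77 on the floxed vehicle arrays and at 12.70, 12.51 and 12.71 on the floxed 4-OHT arrays. Its signal of 11.77 was the lowest of the 10 arrays, and the other 9 lay between 12.41 and 12.91, so the groups overlap apart from that array. The fitted difference was 0.28 (SE 0.22, adjusted p = 0.729) and turned to -0.05 without line 10986. Rpl30 was at 11.32, 11.05 and 10.58 with vehicle and at 11.53, 10.94 and 11.23 with 4-OHT in the floxed lines (difference 0.25, SE 0.15, adjusted p = 0.604, and 0.05 without line 10986). The 2 groups of Rpl30 overlap as well, and its vehicle signal in line 10986 was again the lowest of the 10 arrays.

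Rps13, a protein of the small subunit, was at 12.19, 11.82 and 11.44 with vehicle and at 12.18, 11.87 and 12.06 with 4-OHT in lines 10949, 10950 and 10986. The first 2 pairs were nearly level, the last was not, and the groups overlap. The X-linked Rpl36a was at 13.18, 13.43 and 12.87 with vehicle and at 13.52, 13.37 and 13.42 with 4-OHT. The fitted differences were 0.22 for Rps13 (SE 0.14, adjusted p = 0.618) and 0.28 for Rpl36a (SE 0.13, adjusted p = 0.473). Without line 10986 they were 0.02 and 0.14 (adjusted p = 0.925 and 0.573). For both genes the array of line 10986 with vehicle gave the lowest signal of all 10.

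**Figure D3:**
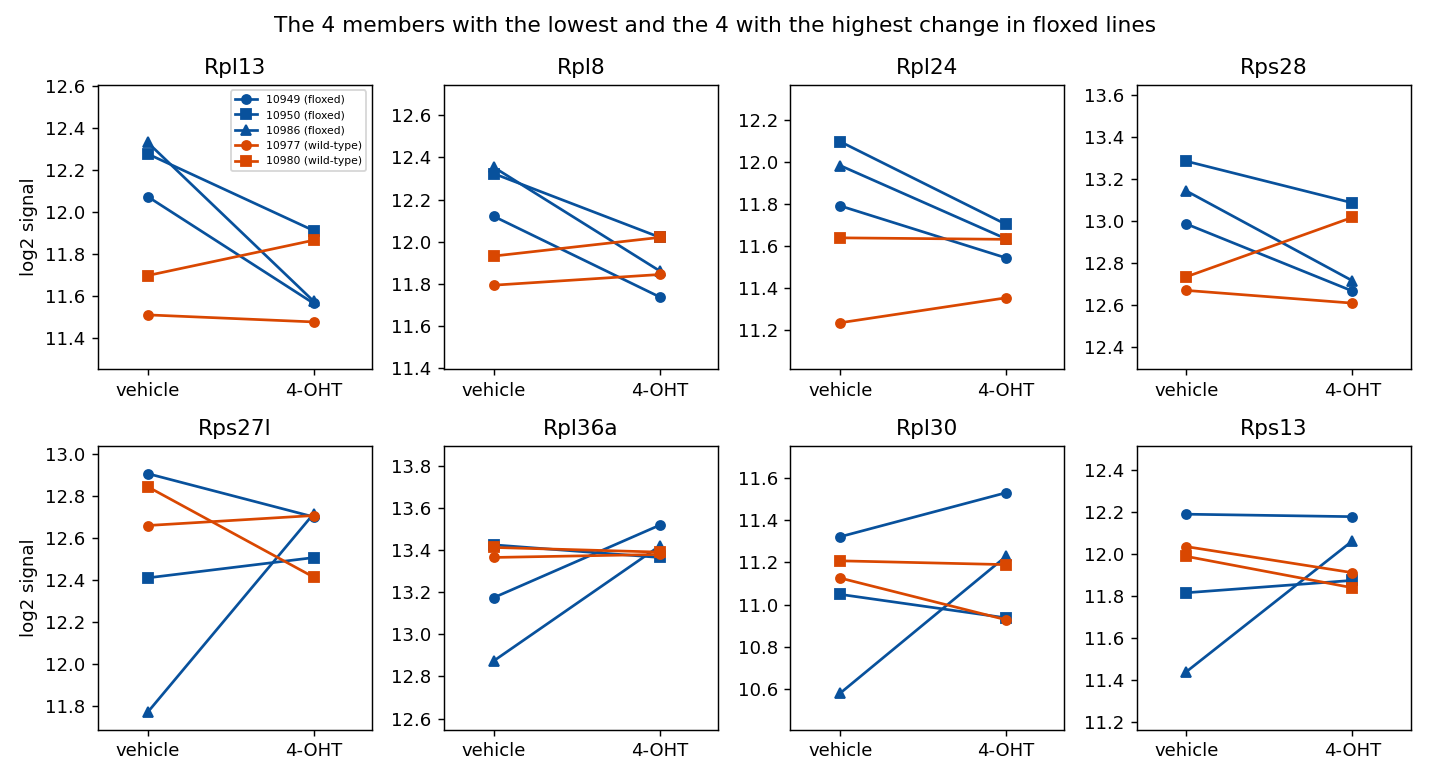
Log2 signal (vertical axis, each panel with its own range) with vehicle and with 4-OHT (horizontal axis) for the 4 members with the lowest and the 4 with the highest fitted difference in floxed lines, 1 line of points per leukaemia. In the top row all 3 floxed (blue) lines slope down; in the bottom row the steepest slope belongs to line 10986, from 11.77 to 12.71 for Rps27l.

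Counted by pattern, the members resembled the other genes. The floxed vehicle and 4-OHT arrays did not overlap, with 4-OHT lower, for 5 members (Rpl13, Rpl24, Rpl37a, Rpl8 and Rps9; 8.47%, against 7.27% of all genes), and with 4-OHT higher for 1 (Rpl10, against 4.55%). In all 3 floxed lines 11 members were lower with 4-OHT (18.6%, against 14.5%) and 8 were higher (13.6%, against 14.6%). Lower in all 3 floxed and higher in both wild-type lines were Rpl37a, Rpl8 and Rpsa (5.08%, against 3.49%), and the reverse held for Rpl10, Rpl23 and Rpl7l1 (5.08%, against 4.58%). Rpl37a, Rpsa and Rpl23 were named after their values were seen. All 6 probe sets of Rpl10 were higher in all 3 floxed lines and all 5 of Rpsa lower, but of the 2 of Rpl23 only 1 was higher. Of the 39 members with several probe sets, 9 had probe sets of opposite sign in line 10986.

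The members' differences varied from line to line. The median 4-OHT minus vehicle difference of the 59 members was -0.09 (SD over genes 0.17) in line 10949, -0.02 (SD 0.17) in line 10950 and 0.10 (SD 0.31) in line 10986. The medians over all genes in these lines were -0.01, 0.04 and -0.04, so the members stood lower than all genes in the first 2 lines and higher in the last. In wild-type lines 10977 and 10980 the members' medians were 0.01 (SD 0.11) and -0.01 (SD 0.12), against 0.00 and -0.00 for all genes. The members that were higher with 4-OHT numbered 17, 28 and 40 of 59 in the floxed lines, taken in the same order, and 34 and 23 in the wild-type lines. These counts depend on the scaling: with each array centred on its own median they were 7, 23 and 45, and 25 and 35.

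Both subunits showed the same order of lines. For the 23 genes of the small subunit the medians were -0.14, -0.02 and 0.07 in the floxed lines, in the order above, and for the 36 of the large subunit -0.09, -0.00 and 0.11. In line 10949, 3 of 23 small subunit genes and 14 of 36 large subunit genes were higher with 4-OHT. The lowest difference of that line was that of Rpl13, at -0.51, and the highest that of Rpl36a, at 0.34.

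**Figure D4:**
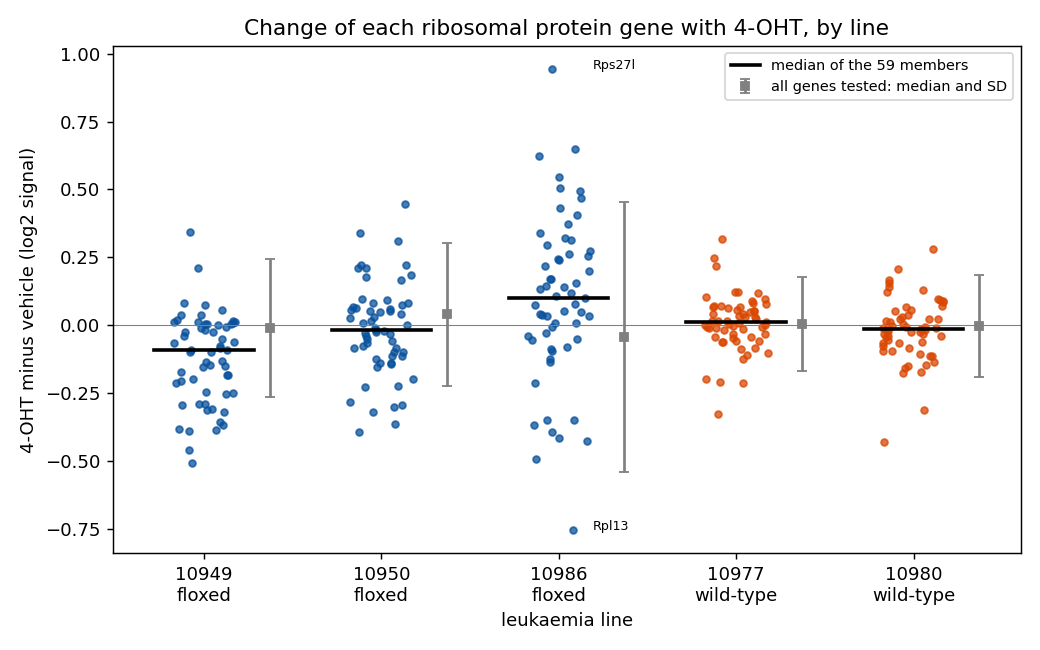
4-OHT minus vehicle difference in log2 signal (vertical axis) of each of the 59 tested members in the 5 lines (horizontal axis), with the members' median as a black bar and the median and SD over all genes tested as a grey square and bar. The members of line 10986 spread from -0.75 (Rpl13) to 0.94 (Rps27l), and those of the wild-type lines stay within -0.43 and 0.32.

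The vehicle array of line 10986 held the lowest signal of the 10 arrays for 30 of the 59 members (50.8%, against 26.1% of all genes). It held the highest for 6 (10.2%, against 27.1%). Under quantile normalization its members' median was 12.83 and not the lowest, since that of line 10977 with vehicle was 12.81. The array of line 10986 also had the narrowest spread of log2 signal (interquartile range 2.67, against 2.80 to 3.05). The shares of all genes were not matched for level, so the part of this narrow spread was not tested. Differences of at least 0.5 either way were found in that line for 6 members (Rpl13, Rpl30, Rpl36a, Rpl7l1, Rps13 and Rps27l; 10.2%, against 25.1% of all genes). Line 10949 had 1 such member, Rpl13 (against 5.38% of all genes), line 10950 had 0 (against 5.38%), and lines 10977 and 10980 had 0 (against 1.04% and 1.91%). Differences of at least 0.25 were found for 25 members in line 10986 (42.4%, against 52.6%), 15 in line 10949 (25.4%, against 22.0%) and 9 in line 10950 (15.3%, against 27.0%). Against the median of the other lines, line 10986 stood apart most upward for Rps27l (by 1.02), Rpl30 (0.72), Rps13 (0.69) and Rps15a (0.63), and most downward for Rpl13 (-0.56), Rps12 (-0.43), Rpl39l (-0.39) and Rpl22 (-0.38). Rpl39l is the dim paralogue below the level filter.

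Without line 10986, 0 of 59 members passed in floxed lines, and the members' median difference was -0.04, with 18 above 0 and 41 below. Without its vehicle array alone and without the line as a block, a fit chosen after seeing the data, the median was -0.06, with 17 above 0 and 42 below, and again 0 passed. The split of 31 above 0 against 28 below in the full data is not stable to the scaling either: it was 26 against 33 under quantile normalization (median -0.02), 28 against 31 with array weights and 33 against 26 with arrays centred on their median.

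In wild-type lines, which carry Cre-ER but no floxed allele, 0 of 59 members passed (0.0% of all genes passed), and no member had an unadjusted p under 0.05 (0.147% of all genes). The median fitted difference was 0.00, with 32 members above 0 and 27 below. Their 95% intervals lay within 1.5-fold for 55 members and within 2-fold for all 59. The lowest differences were -0.24 for Rpl14, -0.19 for Rps27l, -0.18 for Rps3a1 and -0.16 for Rpl9, and the highest were 0.19 for Rpl10l, 0.19 for Rps19, 0.11 for Rps14 and 0.11 for Rps28, each with an adjusted p of 1.0 by limma.

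The wild-type pair of lines did not always move together. In line 10977 Rps28 went from 12.67 to 12.61, whereas line 10980 took it from 12.73 to 13.02. In line 10977 Rps27l went from 12.66 to 12.71, whereas line 10980 took it from 12.84 to 12.41. For Rps28 and Rps27l the sign of the wild-type difference is that of line 10980, and it turned without that line, to -0.06 and 0.05.

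The difference of the 4-OHT effect between floxed and wild-type lines was tested directly, and 0 of 59 members passed (0.0% of all genes). At an unadjusted p under 0.05 there were 4 members (6.78%, against 5.82% of all genes), Rpl13, Rpl8, Rpl24 and Rps28. The floxed minus wild-type differences were -0.61 for Rpl13 (SE 0.18, adjusted p = 0.726), -0.46 for Rpl8, -0.43 for Rps28 and -0.39 for Rpl24. Upward they were 0.47 for Rps27l, 0.36 for Rps13, 0.36 for Rpl30 and 0.28 for Rpl36a, and without line 10986 these became 0.14, 0.16, 0.16 and 0.15. These intervals are wider: 31 of 59 lay within 1.5-fold and 57 within 2-fold, from a bound of -1.03 for Rpl13 to one of 1.30 for Rps27l.

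With vehicle, floxed and wild-type lines were compared to see how the genotypes stood without 4-OHT. None of 59 members passed (0.0192% of all genes, 3 genes, passed), and 8 had an unadjusted p under 0.05 (13.6%, against 9.83% of all genes). This comparison and the 4-OHT difference in floxed lines share the floxed vehicle arrays. The highest floxed minus wild-type values were 0.62 for Rpl13 (SE 0.16, limma adjusted p = 0.332), 0.52 for Rpl24 (SE 0.14), 0.43 for Rps28 (SE 0.16) and 0.40 for Rpl8 (SE 0.12). The lowest were -0.39 for Rps27l, -0.35 for Rps3a1, -0.26 for Rpl9 and -0.23 for Rpl36a. Without line 10986 Rps27l stood at -0.09 and Rpl36a at -0.09, Rps3a1 at -0.25 and Rpl9 at -0.18. Floxed vehicle arrays were all above the wild-type vehicle arrays for 11 members (18.6%, against 18.6% of all genes) and all below for 2, Rpl10 and Rps3a1 (3.39%, against 12.1%). With each array centred on its own median, 24 members were above 0 and 35 below, against 33 and 26 in the deposited scale, so the balance of signs depends on the scaling.

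With 4-OHT the members differed little between genotypes. None of 59 passed (0.645% of all genes, 101 genes, passed), and none had an unadjusted p under 0.05 (10.8% of all genes). The median size of the difference was 0.03 for the members and 0.11 for all genes. The members are brighter than most genes, and these 2 values were not matched for level. The lowest floxed minus wild-type differences were -0.20 for Rpl22 (SE 0.14), -0.17 for Rps21, -0.16 for Rps9 and -0.14 for Rps3a1, and the highest 0.18 for Rps4l (SE 0.33), 0.18 for Rpl7, 0.17 for Rpl30 and 0.16 for Rps13. Without line 10986 Rpl22 stood at -0.12, Rps3a1 at -0.07 and Rps4l at -0.14. Rpl13 stood at 0.01 and Rpl8 at -0.06. Floxed 4-OHT arrays were all above the wild-type 4-OHT arrays for 4 members (6.78%, against 12.6%) and all below for 2 (3.39%, against 14.2%). For 52 members the 95% interval lay within 1.5-fold, and for all 59 within 2-fold. The signs split 33 above 0 against 26 below, and 17 against 42 with arrays centred on their median.

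The members that differed most between leukaemias without treatment were Rps27l, Rps4l, Rpl12 and Rps21. The range over the 5 vehicle arrays was 1.13 for Rps27l and 1.13 for Rps4l, 0.996 for Rpl12 and 0.98 for Rps21. Over the 4 vehicle arrays without that of line 10986 it was 0.50 for Rps27l, 0.25 for Rps4l, 0.886 for Rpl12 and 0.58 for Rps21, so the ranges of Rps27l, Rps4l and Rps21 rest largely on that array. Rps4l, an autosomal copy of the X-linked Rps4x, was at 8.0 with vehicle and 7.87 with 4-OHT in line 10986 and between 6.74 and 7.12 on the other 8 arrays, so both arrays of that leukaemia were high. Rps4x was at 12.97 and 13.34 on the same 2 arrays, within or just below its range of 12.99 to 13.45 elsewhere. For Rpl12 line 10949 was highest, at 9.82 with vehicle and 9.57 with 4-OHT, against 8.83 to 9.49 on the other 8 arrays. Rps21 has 2 probe sets that went apart in line 10986, at -0.59 and 0.43, so its value is uncertain.

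Paralogues of ribosomal proteins have copies expressed mainly in testis or muscle, and near-identical copies and pseudogenes can share probes. Of the 6 measured, Rpl3l, the muscle copy of Rpl3, had a mean signal of 6.14 and, like Rpl39l, lay below the level filter. Rpl10l, the testis copy of Rpl10, lay between 6.76 and 7.46, with a floxed difference of -0.06 (SE 0.11, adjusted p = 0.956), while Rpl10 lay between 13.98 and 14.33, with 0.13 (SE 0.10, adjusted p = 0.702). Without line 10986 these were -0.12 and 0.06. Rpl7l1, a paralogue of Rpl7, lay between 11.43 and 12.04, with 0.19 (SE 0.12), and Rpl7 between 12.22 and 12.73, with 0.06 (SE 0.14). The value of Rpl7l1 rests on line 10986, at 0.51, against 0.05 in line 10950 and 0.0050 in line 10949. Without line 10986 the differences were 0.03 for Rpl7l1 and 0.02 for Rpl7. Rps4l stood at -0.18 (SE 0.12) and Rps4x at 0.21 (SE 0.11), the latter at 0.14 without line 10986. None of the 4 paralogues and 4 partners tested passed in any of the 5 comparisons.

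Members tied to human disease or to p53 did not pass either. Rps19, the gene most often mutated in Diamond-Blackfan anaemia, was at 12.10, 11.56 and 11.78 on the floxed vehicle arrays and at 11.64, 12.01 and 11.81 on the 4-OHT arrays of lines 10949, 10950 and 10986. It was lower with 4-OHT in line 10949 and higher in line 10950, by -0.46 and 0.45, and the fitted difference was 0.01 (SE 0.17, limma adjusted p = 1.0), and -0.01 without line 10986. Rps14, lost in the 5q- syndrome, stood at -0.06 (SE 0.10, adjusted p = 0.941), and Rpl5, which binds Mdm2 with the 5S RNA, at 0.10 (SE 0.10, adjusted p = 0.803). Rpl5 lay between 12.60 and 12.91 on all 10 arrays, and its difference was 0.04 without line 10986. Of the 5 probe sets of Rpl5, 1 was higher with 4-OHT in all 3 floxed lines. The 2 of Rps14 stood at -0.36 and -0.01 in line 10986. Of the 19 Diamond-Blackfan genes listed, 9 were measured singly, and 0 passed in any comparison. Of the p53 circuit, 2 genes were tested, Mdm2 and Mdm4, and neither passed in floxed lines (median difference 0.28). The larger value was that of Mdm2, with 0.58 (SE 0.22, limma adjusted p = 0.359). Trp53 and Cdkn1a have no single-symbol probe set here.

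The other genes of the ribosome pathway were read from lists fixed by name. In floxed lines 0 of 14 translation factors and other genes with TOP messages passed (median difference 0.07), with Eif3e, a subunit of initiation factor eIF3, at 0.31 (SE 0.26, adjusted p = 0.748) and the snoRNA host Gas5 at -0.26 (SE 0.11, adjusted p = 0.440). None of 9 initiation factors outside that class passed (median -0.00), with the cap-binding Eif4e at 0.30 (SE 0.22) and Eif5, which helps select the start codon, at 0.19 (SE 0.10). Both Eif3e and Eif4e were below 0 in lines 10949 and 10950 and stood at 1.20 and 1.04 in line 10986.

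None of 18 genes of mTOR signalling passed (median -0.12), with Rheb, the GTPase that activates mTOR, at 0.42 (SE 0.25, adjusted p = 0.577) and Mtor, the kinase itself, at -0.39 (SE 0.11, adjusted p = 0.217). None of 22 ribosome assembly factors passed (median 0.17), with the small subunit kinase Riok2 at 0.62 (SE 0.26, adjusted p = 0.403), with 1.51 in line 10986, and the large subunit export adaptor Nmd3 at 0.42 (SE 0.21, adjusted p = 0.488). None of 11 RNA polymerase I genes, which make ribosomal RNA, passed (median 0.09), with the subunits Polr1e at 0.64 (SE 0.16, adjusted p = 0.181) and Polr1b at 0.38 (SE 0.10, adjusted p = 0.176). These lists had 0 members past the threshold in the other 4 comparisons as well. Fau, a small subunit gene outside the Rps naming, stood at 0.04 (SE 0.10) and Myc, a driver of ribosomal gene transcription, at -0.48 (SE 0.17, adjusted p = 0.318).

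Of the markers of mature myeloid cells 2 of 12 passed in floxed lines, where 0.153% of all genes did. The marker lists were chosen with earlier results of these data known, so the 2 shares cannot be compared as a test. Of 6 monocyte and macrophage markers Ctss was higher with 4-OHT by 1.40 (SE 0.16, limma adjusted p = 0.046). Of 6 late granulocyte markers Mmp8 was higher by 2.56 (SE 0.19, adjusted p = 0.0143), and the other 10 did not pass. Neither Ctss nor Mmp8 passed without line 10949 or without line 10950, and nor did any other gene tested. The loss is therefore not particular to these 2 genes. In the direct test of floxed minus wild-type effects, 0 markers of either list passed (smallest limma adjusted p = 0.563 for monocyte and 0.2835 for granulocyte markers). The log2 of the summed monocyte signal was 12.1 to 13.0 on floxed vehicle, 12.8 to 13.7 on floxed 4-OHT, 13.0 to 13.3 on wild-type vehicle and 12.7 to 13.5 on wild-type 4-OHT arrays. The same sum for late granulocyte markers was 10.7 to 11.7, 11.8 to 12.4, 11.8 to 13.0 and 11.2 to 13.3 in these groups. The floxed vehicle and 4-OHT ranges overlap for the monocyte sum and not for the granulocyte sum. A sum of linear signals follows its brightest members, so the sums do not rank the 2 lists. The median fitted difference in floxed lines was 1.19 for the 6 monocyte markers and 0.22 for the 6 late granulocyte markers. All 12 markers passed the level filter. Their part in the values of the ribosomal protein genes was not tested.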

How the data were processed

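The deposited table holds 1 linear intensity per probe set and array, made by the authors with RMA per the submitters' processing notes, whose software is not given in the sources. The log2 of each deposited intensity was taken. Array signals have no read depth. Of 35556 probe sets, 21789 have 1 symbol in the platform annotation, 1621 several, and 12146 are unlisted and unnamed here. Of those with 1 symbol, 21698 matched the RefSeq gene table of GRCm38.p6 by Entrez identifier, and 0 symbols needed an update. A gene was its brightest single-symbol probe set, and the level filter was the 25th percentile of all probe set means.

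All 10 arrays entered each limma fit (version 3.58.1, R 4.3.3), two-sided, with Benjamini-Hochberg adjustment over 15662 genes and a threshold of 0.05. The 4-OHT terms were fitted with the line as a block (3 residual degrees of freedom), and genotypes were compared with the line as a random block (statmod 1.5.0, correlation 0.165). The pairing follows the series design. Deviations of a line's arrays from their group means correlated at 0.782 (10949), 0.224 (10950), -0.0641 (10986) and 0.427 (10977 and 10980). With 2 wild-type lines the deviations mirror each other, so 0.427 is a single value. The code was tested on simulated data. The members and lists were chosen with earlier results of these data known. Named members were the 5 brightest and dimmest, the 4 extreme each way per comparison, paralogues and partners, the 4 with the largest vehicle range, the 4 each way where line 10986 stood apart most, the stalk genes, Rpl5, Rps14 and Rps19, and of other lists the members that passed or else the 2 with the largest difference. Alternatives covered the block, filter, scaling, prior, array weights, probe set choice, log offset and each line left out.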

Additional observations from a re-analysis of the deposited data

How the results depend on the processing

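Each of the 5 comparisons was refitted under 15 alternatives, 1 of them (without the vehicle array of line 10986 and without the block) chosen after seeing the data. The count of ribosomal protein genes past the threshold was 0 in every one, the fits without the line as a block and those leaving out each line included, except for floxed against wild-type lines under vehicle with array weights, where it was 29 (14 higher, 15 lower). In that fit 6236 of all genes passed, against 3 in the main fit. The vehicle array of line 10950 received a weight of 116, against 0.134 to 3.03 for the other arrays, and the estimate of the weights did not converge. Rpl36a turned to 0.0365 there. Leaving out lines moved Rps27l in floxed lines between -0.0547 and 0.52 (and to -0.0176 without the vehicle array and block), Rps27l in wild-type lines between -0.43 and 0.0474, Rps28 in wild-type lines between -0.0604 and 0.28, and Rps4l between genotypes under 4-OHT between -0.14 and 0.42. With arrays centred on their median the members' median difference became -0.0135 in line 10977 and 0.0139 in line 10980, and -0.11, -0.05 and 0.18 in lines 10949, 10950 and 10986, where quantile normalization gave -0.07, -0.01 and 0.03. With the mean over probe sets in place of the brightest, the median level became 12.71, 12.44 and 12.48 with vehicle and 12.60, 12.52 and 12.54 with 4-OHT in lines 10949, 10950 and 10986, and 12.51 and 12.55 with vehicle and 12.56 and 12.55 with 4-OHT in lines 10977 and 10980. Counts over all genes moved more. In floxed lines, 24 became 0 to 440 with a line left out and 3 to 61 otherwise. For the difference of effects, 0 became 0 to 20 and 0 to 1. For vehicle, 3 became 0 to 15 and 0 to 6236, and for 4-OHT, 101 became 0 to 51 and 66 to 1106. Signal over background limits Rpl3l, Rpl39l, Rps4l and Rpl10l, which lie near the level filter.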
